A study of Mus musculus with 6 samples.

Results

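The AP-1 and EGR immediate-early genes measured here were Fos, Fosb, Fosl1, Fosl2, Jun, Junb, Jund, Egr1, Ier2 and Atf3, chosen as a named list of 10 genes and found by symbol in all 10 cases among the 21397 genes of the deposited table. They were measured by RNA-seq in small intestinal organoids, which are crypt cultures grown in Matrigel, from Fpr2f/f mice. These mice carry a floxed Fpr2 gene in both groups, and the labels name no Cre. On day 5, the MMK-1 group had received MMK-1, a synthetic peptide agonist of the receptor FPR2, at 1 μmol/L, and the Control group had received the vehicle, DMSO at 0.1%, with 3 libraries in each group. The study's methods give the length of exposure as 5 days. The levels are therefore those after 5 days, and earlier times were not measured in these libraries. The sample label for treatment names a dose of 1 mmol/L instead, and the dose of the protocol text was taken. Each sample pooled organoids of several mice according to the study, so that no library stands for a single animal.

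AP-1 is a transcription factor made of dimers of the Fos family with the Jun family, or of Jun proteins with each other and with ATF proteins such as ATF3, that share a basic leucine zipper (bZIP). EGR1 is a zinc finger factor and IER2 a nuclear protein of unrelated structure. Fos, Jun, Egr1 and others of the list are classical immediate-early genes, which are switched on by growth factors and stress without the need for new protein, while Jund is expressed in resting cells and Fosl1 and Fosl2 respond later. ERK reaches many of these genes by phosphorylating ELK1, which sits with SRF on CArG boxes in their promoters, and JNK phosphorylates the c-Jun protein itself. In the intestine, ERK signalling supports crypt proliferation, and Fos and Jun are also induced by mechanical and heat stress, which is why stress genes are given beside them.

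With MMK-1, all 8 members with enough RNA to be tested were higher than in Control organoids, a call made in this direction for 48.5% of all genes tested. Fos, at 14.9 against 3.18 FPKM, changed most. Fosl2, its most abundant relative in Control organoids, changed least, at 17.8 against 15.0 FPKM. The other 6 members rose by 1.42 to 2.16 times in mean FPKM, and Fosb and Fosl1 were close to the limit of detection in both groups. FPKM, the unit of the deposited table, is the number of sequenced fragments scaled by the length of the gene and by the total of the library, so levels can be compared between genes.

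Promoter sequence is printed for Fos, Atf3 and Jun, the 3 with the largest log2 fold changes among the 8 members tested, to show which known elements their windows hold. The sequences are RefSeq windows of 250 bases upstream of the start on GRCm38.p6, and windows were matched for 7 of the 10 members, but for none of Fosl1, Egr1 and Ier2. The start is that of RefSeq, which is also the GENCODE start of the gene for Fos and Jun and lies within 30 bases of it for Fosb and Junb. For Atf3 it lies 34706 bases and for Fosl2 671 bases downstream of the GENCODE start, and for Jund 1210 bases upstream of it, so these 3 windows do not adjoin the gene starts given with the values. They are written 5′ to 3′ on the strand of the gene. Capitals mark, on either strand, TGACG, the core of the cAMP response element (CRE), TATAAA, the TATA box, and TGACATCA, the AP-1-like site of the Jun promoter. Fos is at chr12:85473640-85473889 on the plus strand, Atf3 at chr1:191183334-191183583 on the minus strand and Jun at chr4:95052223-95052472 on the minus strand.
Fos: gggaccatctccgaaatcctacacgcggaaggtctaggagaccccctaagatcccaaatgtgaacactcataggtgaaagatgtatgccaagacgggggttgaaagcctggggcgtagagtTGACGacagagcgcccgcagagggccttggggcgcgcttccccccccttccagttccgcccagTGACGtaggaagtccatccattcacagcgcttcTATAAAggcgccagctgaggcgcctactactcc
Atf3: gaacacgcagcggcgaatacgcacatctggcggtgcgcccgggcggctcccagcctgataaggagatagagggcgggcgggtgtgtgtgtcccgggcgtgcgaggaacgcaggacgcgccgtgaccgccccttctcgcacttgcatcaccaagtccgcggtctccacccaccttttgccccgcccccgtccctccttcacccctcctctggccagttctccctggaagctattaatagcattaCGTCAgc
Jun: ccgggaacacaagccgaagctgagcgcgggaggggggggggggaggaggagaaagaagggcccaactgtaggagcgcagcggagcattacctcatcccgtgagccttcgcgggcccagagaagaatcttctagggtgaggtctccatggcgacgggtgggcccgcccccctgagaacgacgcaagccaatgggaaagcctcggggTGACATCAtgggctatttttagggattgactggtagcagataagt

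In the Fos window, TGACG lies at -129 and at -66 and the TATA box at -33, counted from the start site. In the Atf3 window the CRE core lies on the opposite strand, from -7 to -3, and in the Jun window TGACATCA begins at -45. TGACG was present in the windows of 4 of the 7 members, Fos, Fosb, Junb and Atf3, and in 17.8% of all 32851 windows of this length. TGACATCA was present in 2.93% and TATAAA in 12.4% of all windows, and among the members each was found in 1 of the 7 windows, those of Jun and Fos. These TGACG and TGACATCA searches were added after the windows had been read. The EGR site GCGNGGGCG, searched on both strands, was found in Fosb and Fosl2 and in 4.70% of all windows. No window of the 7 held a full CRE (TGACGTCA), an AP-1 site (TGACTCA or TGAGTCA) or a CArG box (CC, 6 bases of A or T, GG), which occurred in 1.55%, 4.46% and 1.47% of all windows. With 1 mismatch allowed, a CArG box matched in 18.6% of all windows, and among the members in Atf3 as CCTGATAAGG at -197 and in Fos as TCTATAAAGG at -35, where it overlaps the TATA box. These matches describe the letters of the windows only, and say nothing of the DNA outside them.

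Library totals lay between 35512739 and 37537463 fragments. Because FPKM values are whole numbers of fragments times a fixed step, the fragments behind them could be computed for 99.96% of the genes above 0, all members included. Differences were tested with limma on log2(FPKM + 1) over 10551 genes, those whose mean over all libraries reached 1 FPKM, and p-values were adjusted over all of them by the Benjamini-Hochberg method. On this scale the median gene was 0.13 higher with MMK-1, so each change is also given relative to that median. The labels do not say whether the libraries came from separate cultures, and p-values measure the spread between these libraries.

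Among the Fos family, Fos (NCBI gene 14281, chr12:85473890-85477273, plus strand), the prototype dimer partner of Jun, had 3.35, 3.06 and 3.13 FPKM in Control and 14.4, 15.0 and 15.3 FPKM with MMK-1. The lowest MMK-1 library was far above the highest Control library, and replicates within a group were close. Behind these values were 242 to 265 fragments per Control library and 1081 to 1201 per MMK-1 library. Fos rose by 1.93 ± 0.0497 on the log2 scale (SE, limma, adjusted p = 1.04e-08, n = 3 per group), or 1.80 above the median gene. By its log2 fold change Fos ranked 27 of 10551 genes, counted from the most positive.

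Fosl2 (NCBI gene 14284, chr5:32135801-32157842, plus strand), which encodes FRA-2, a Fos protein without the transactivation domain of c-Fos, had 15.4, 14.7 and 14.9 FPKM in Control and 18.0, 17.1 and 18.3 FPKM with MMK-1. The groups did not overlap, but the difference was small. It was 0.23 ± 0.0451 on the log2 scale (SE, limma, adjusted p = 0.00157), and 0.097 above the median gene. After scaling the libraries by their upper quartile it was 0.081, and the call was lost (limma, adjusted p = 0.0985).

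Fosb (NCBI gene 14282, chr7:19302696-19310051, minus strand) was represented by 7, 8 and 10 fragments in Control and by 15, 18 and 31 fragments with MMK-1, or 0.0495 to 0.0708 and 0.112 to 0.221 FPKM. It did not reach the level required for the test. Its groups did not overlap, and its mean FPKM was 2.63 times higher with MMK-1 (exact two-sided permutation test, p = 0.1, n = 3 per group, the smallest p that 3 against 3 libraries can give) and 2.07 times higher without MMK-1 replicate 3. When every gene above 0 was tested, its difference was 0.12 on the log2 scale (limma, adjusted p = 0.0366). Fosl1 (NCBI gene 14283, chr19:5447547-5455946, plus strand), which encodes FRA-1, had 2, 5 and 2 fragments in Control and 6, 1 and 6 with MMK-1, in total 9 against 13. The values overlapped between the groups, and no difference was detectable at this depth (exact two-sided permutation test, p = 0.4, n = 3 per group). Fosl1 overlaps Ccdc85b on the opposite strand, and no strand setting of the counting is given in the sources used here, so reads of the pair cannot be told apart.

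**Figure D1:**
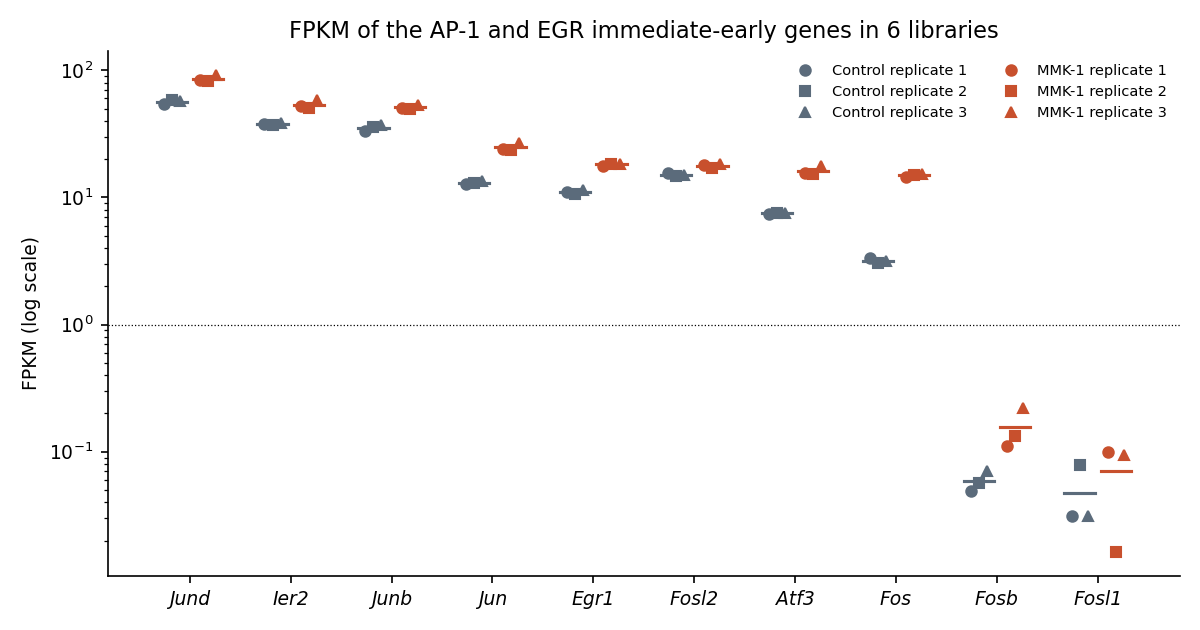
FPKM of the 10 members on a log axis, ordered by their MMK-1 mean, with 1 point per library, the marker shape giving the replicate and the bar giving the group mean. The dotted line is the mean FPKM of 1 required for the test. Control and MMK-1 points are apart for every member except Fosl1, and Fosb and Fosl1 lie below the line in both groups.

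The Jun family was more abundant and changed less than Fos. Jun (NCBI gene 16476, chr4:95049034-95052222, minus strand), whose protein is the main target of JNK, had 12.7, 12.9 and 13.5 FPKM in Control and 24.0, 23.4 and 26.7 FPKM with MMK-1. It rose by 0.87 ± 0.0564 on the log2 scale (SE, limma, adjusted p = 1.85e-06), or 0.74 above the median gene. Junb (NCBI gene 16477, chr8:84974484-84978718, minus strand), which encodes a weaker activator that can oppose c-Jun, had 33.3, 35.6 and 37.1 FPKM in Control and 50.1, 49.4 and 53.5 FPKM with MMK-1. It rose by 0.52 ± 0.0527 (log2, SE, limma, adjusted p = 2.98e-05). Jund (NCBI gene 16478, chr8:70698949-70700616, plus strand), the Jun gene that is expressed in resting cells, was the most abundant member in both groups. It had 54.1, 57.9 and 57.2 FPKM in Control and 84.0, 81.8 and 92.4 FPKM with MMK-1, and rose by 0.60 ± 0.0540 (log2, SE, limma, adjusted p = 1.37e-05). In each of the 3 genes every MMK-1 library was above every Control library. Jun overlaps the antisense gene Junos, Junb overlaps Prdx2 and Jund overlaps the antisense gene Gm11175, each on the opposite strand, and reads of these pairs cannot be told apart.

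The make-up of the families followed from these levels. Fos was 17.8%, 17.1% and 17.2% of the summed FPKM of the 4 Fos genes in Control, and 44.2%, 46.6% and 45.2% with MMK-1. Fosl2 made up 82.0% ± 0.222 (SD, n = 3) of the sum in Control and 54.0% ± 1.11 (SD, n = 3) with MMK-1, and the libraries of the groups did not overlap for either share (exact two-sided permutation test, p = 0.1 for each, the smallest possible). The ratio of Fos to Fosl2 was 0.208 to 0.217 in Control and 0.802 to 0.881 with MMK-1. Within the Jun family the shares moved by at most 2.83 percentage points. Jun was 12.4% ± 0.306 of the summed FPKM in Control and 15.3% ± 0.169 with MMK-1 (SD, n = 3 per group, exact permutation p = 0.1). Junb was 33.7% ± 0.625 in Control and 31.5% ± 0.491 with MMK-1, also without overlap (SD, n = 3 per group, exact permutation p = 0.1), and Jund was 53.8% ± 0.720 and 53.2% ± 0.328, with overlapping groups (SD, n = 3 per group, exact permutation p = 0.3). The summed FPKM of the Fos genes was 1.80 times and that of the Jun genes 1.54 times the Control mean, and Jun RNA stayed the larger pool, at 162 ± 9.51 FPKM against 32.9 ± 0.889 FPKM for the Fos genes with MMK-1 (SD, n = 3). These are RNA levels, and dimers were not measured.

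**Figure D2:**
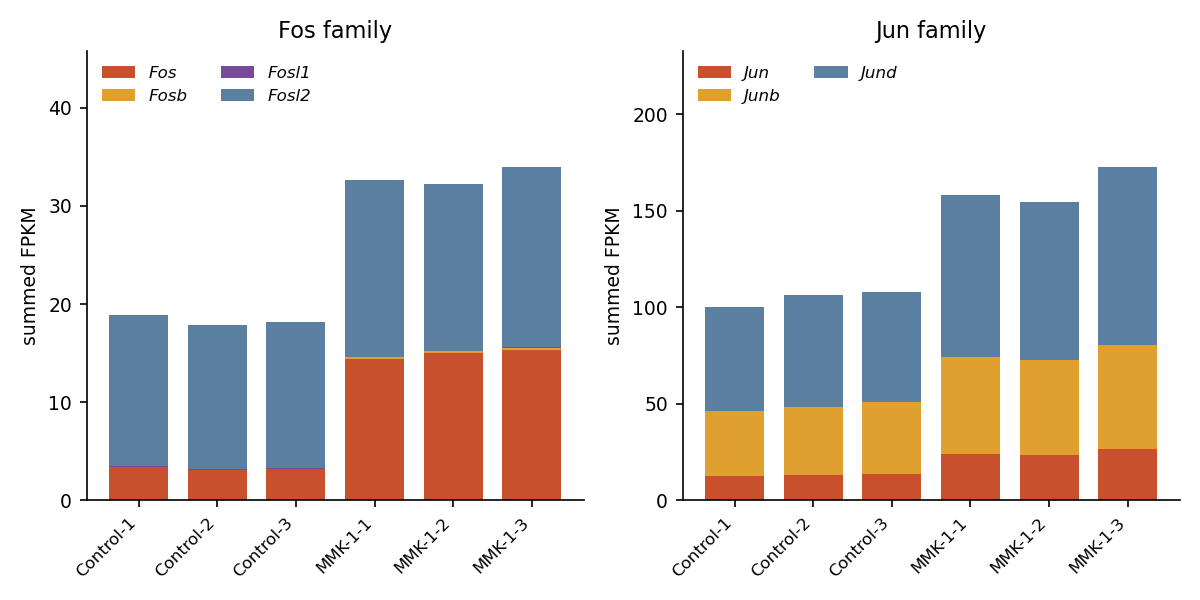
Summed FPKM of the Fos genes (left) and the Jun genes (right) in each of the 6 libraries, with each bar divided by gene and starting at 0. The Fos segment takes 17.1% to 17.8% of the bar in Control and 44.2% to 46.6% with MMK-1, while that of Jun among the Jun genes goes from a mean of 12.4% to 15.3%; Fosb and Fosl1 are too thin to be seen clearly.

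Of the remaining members, Atf3 (NCBI gene 11910, chr1:191170296-191218039, minus strand), a bZIP factor induced by many stresses, had 7.41, 7.51 and 7.56 FPKM in Control and 15.6, 15.3 and 17.6 FPKM with MMK-1. It rose by 1.01 ± 0.0570 (log2, SE, limma, adjusted p = 8.09e-07), the largest log2 fold change after that of Fos among the 8 members tested, and it overlaps Gm24748, a small RNA gene on the opposite strand. Egr1 (NCBI gene 13653, on chromosome 18), a classical readout of ERK activity, had 11.1, 10.7 and 11.4 FPKM in Control and 17.6, 18.4 and 18.4 FPKM with MMK-1. It rose by 0.67 ± 0.0443 (log2, SE, limma, adjusted p = 2.18e-06). Ier2 (NCBI gene 15936, chr8:84661331-84662852, minus strand), an abundant member already in Control organoids, had 37.9, 37.2 and 38.4 FPKM in Control and 52.5, 50.7 and 57.9 FPKM with MMK-1. It rose by 0.49 ± 0.0531 (log2, SE, limma, adjusted p = 4.21e-05). Groups did not overlap for any of these 3 genes.

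The order of the levels changed with these differences. In Control the order was Jund, Ier2, Junb, Fosl2, Jun, Egr1, Atf3, Fos, Fosb and Fosl1, and neighbours were apart in every library except for Fosb and Fosl1. With MMK-1, Jun and Egr1 stood before Fosl2, and the values overlapped between Ier2 and Junb, between Egr1 and Fosl2, and between Fosl2 and Atf3. Fos, at 14.4 to 15.3 FPKM, came just below Atf3, whose lowest library had 15.3 FPKM.

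Set against all genes, these counts read differently by threshold. All 8 members tested were higher at an adjusted p of at most 0.05, a call made for 48.5% of all genes in this direction, and all 8 had every MMK-1 library above every Control library, as had 50.5% of all genes tested. None of the 8 was lower by limma at the adjusted or the unadjusted threshold, nor by limma-voom, while 24.7% of all genes were called lower. At the thresholds of the study's methods, a fold change of at least 2 at p of at most 0.05, 2 members, Fos and Atf3, were called, against 3.39% of all genes called higher. Without MMK-1 replicate 3, or after upper-quartile scaling, median-of-ratios scaling or a correction for GC content, Atf3 fell below 2-fold on the log2(FPKM + 1) scale and Fos alone was left, although the plain ratio of the Atf3 means without MMK-1 replicate 3 was still 2.07. The median log2 fold change of the 8 members was 0.63 against 0.13 for all genes tested, and it was 0.48 against -0.0045 after upper-quartile scaling. All 8 had means above 1 FPKM in both groups, so none entered the test through 1 group only. In FPKM as deposited 5118 genes were called higher and 2606 lower, whereas 3659 and 3906 were called after upper-quartile scaling.

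**Figure D3:**
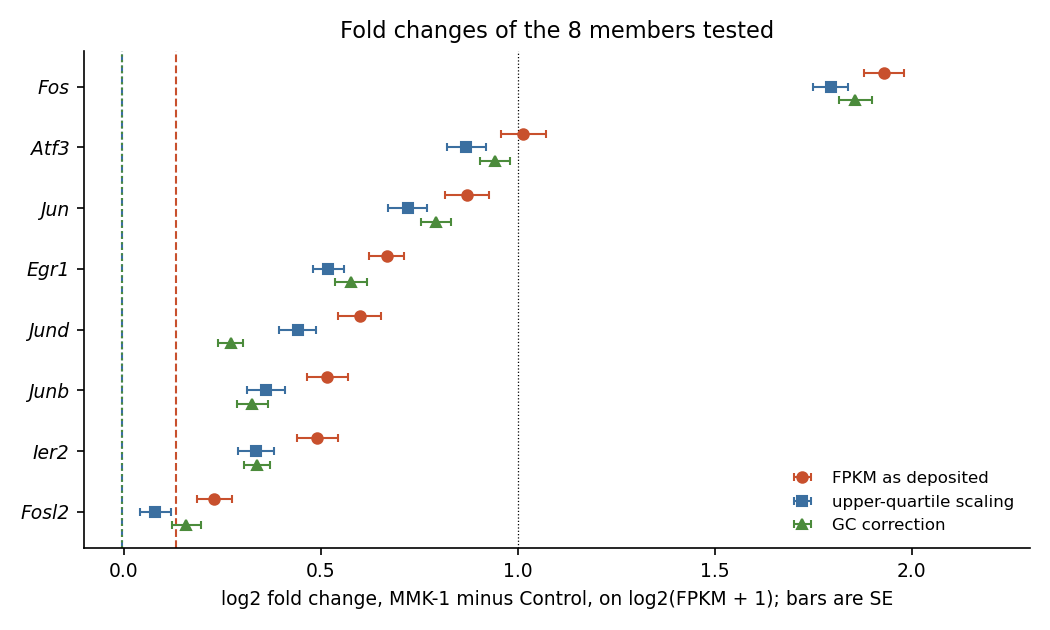
Log2 fold changes of the 8 members tested, with SE bars, from FPKM as deposited (circles), after upper-quartile scaling (squares) and after GC correction (triangles). Dashed and dotted vertical lines near 0 and at 0.13 are the medians of all genes tested in the same fits, and the thin line at 1 is the 2-fold threshold. Fos is at 1.79 to 1.93 in the 3 fits, and Fosl2, at 0.081 to 0.23, is nearest to the medians.

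MMK-1 replicate 3 gave the highest value of the 3 MMK-1 libraries for all 8 members tested, and it did so for 60.7% of all genes tested. This library also differed by GC content, the share of G and C bases in a transcript. Its median log2 ratio to the mean of the other MMK-1 libraries was -0.13 in the fifth of genes with the least GC and 0.10 in the fifth with the most, and the members lie in the upper 2 of the 5 bins, with 51.9% to 67.1% GC among the 8. When a trend on GC content was removed from each library, which also centred all genes near 0, Jund was 0.27 ± 0.0319 higher (log2, SE, limma, adjusted p = 0.000121) in place of 0.60, and Junb was 0.33 ± 0.0395 higher (limma, adjusted p = 0.000143) in place of 0.52. Fos kept 1.86 and Atf3 0.94 in that fit, and all 8 remained called. For Jund, the length implied by FPKM, 2877 bases, is longer than its GENCODE span, chr8:70698949-70700616. The GC content used for Jund is that of a GENCODE transcript, so it may differ from that of the sequence counted. The part of GC content in the members' differences was not tested.

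**Figure D4:**
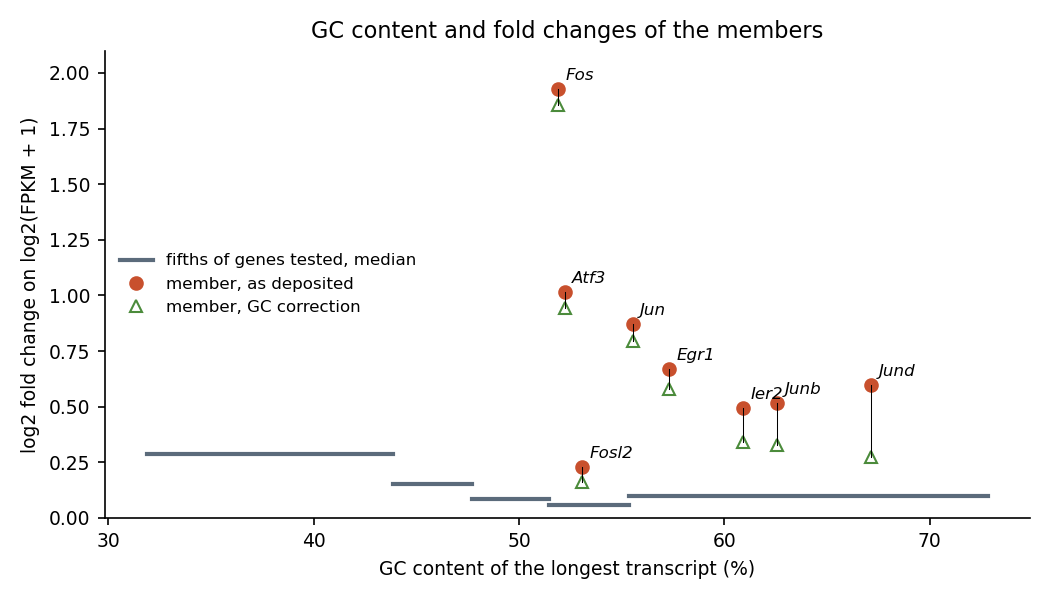
Log2 fold change of each tested member against the GC content of its longest annotated transcript, from FPKM as deposited (filled circles) and after GC correction (open triangles). Horizontal lines span the 5 GC bins of all genes tested at their median, from 0.058 to 0.29. Thin vertical lines join both values of a member, and they are longest for Jund, from 0.60 to 0.27. The annotated transcript of Jund is shorter than the length behind its FPKM.

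Other immediate-early genes, from a list of 42 symbols of which 34 could be tested, moved in both directions, with 22 higher and 5 lower (limma, adjusted p of at most 0.05) and a median of 0.33 on the log2 scale. All genes tested also moved in both directions, with 48.5% called higher, 24.7% called lower and a median of 0.13. Ier5l, Sik1 and Sgk1 entered the test through 1 group only, their other mean being under 1 FPKM, and among the other 31 genes 20 were higher and 4 lower, with a median of 0.32. Ier5l was at a mean of 0.550 FPKM in Control and 2.34 FPKM with MMK-1, a difference of 1.10 ± 0.0972. Zfp36l2, which encodes a protein that destabilises mRNA, rose by 0.91 ± 0.0486, and Ccn1, a matricellular growth factor gene, by 0.89 ± 0.0715 (log2, SE). Sgk1, a kinase gene induced by serum and glucocorticoids, changed most of all and in the other direction, from 4.48, 4.69 and 4.52 FPKM to 1.17, 0.930 and 0.842 FPKM, a log2 fold change of -1.49 ± 0.0706 (SE, limma, adjusted p = 2.94e-07). Dusp1, the MAP kinase phosphatase that is itself an immediate-early gene, had 2.37, 3.17 and 2.62 FPKM in Control and 5.00, 4.56 and 5.92 FPKM with MMK-1, and rose by 0.73 ± 0.100 (log2, SE, limma, adjusted p = 0.000191). The number lower was 12, with 19 higher, after upper-quartile scaling, 2 without the filter on low values or without Control replicate 1, and 3 without Control replicate 2, Control replicate 3 or MMK-1 replicate 2.

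Of the related bZIP genes outside the 10, 12 of 20 tested were higher and 4 lower, with a median of 0.19, beside 48.5% higher, 24.7% lower and a median of 0.13 for all genes. Without 1 gene that entered the test only through the Control group, 12 of 19 were higher and 3 lower. Creb1 rose by 0.80 ± 0.0887 and Cebpb by 0.71 ± 0.0502, while Maf had a log2 fold change of -0.66 ± 0.121 (SE). After upper-quartile scaling 7 were higher and 5 lower, and after GC correction Creb1 and Cebpb were 0.44 and 0.38 higher. The other EGR genes were hardly present, with 3, 5 and 5 fragments of Egr2 in Control and 6, 5 and 9 with MMK-1, and 0 to 5 fragments of Egr3 per library. Of the genes for the EGR corepressors, Nab1 rose by 0.55 ± 0.0748 and Nab2 had a log2 fold change of -0.33 ± 0.0575 (SE), both past the threshold (limma, adjusted p = 0.000169 and 0.000818).

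Upstream, the genes of SRF, its ternary complex factors and its coactivators were higher in 5 of 5 tested, with a median of 0.31, and in 3 of 5 after upper-quartile scaling, or in 4 of 4 and 2 of 4 without Elk1, which entered the test only through the MMK-1 group. The share of all genes called higher was 48.5% in FPKM as deposited. Elk1, the ERK target that binds with SRF, had 0.941, 1.16 and 0.875 FPKM in Control and 2.38, 2.53 and 2.20 FPKM with MMK-1, so that the groups were far apart at a low level, with a Control mean of 0.991 FPKM. It rose by 0.76 ± 0.0732 (log2, SE, limma, adjusted p = 2.07e-05). Srf was at 5.20 to 5.52 FPKM in Control and 6.35 to 7.31 FPKM with MMK-1, a difference of 0.27 ± 0.0598 (log2, SE, limma, adjusted p = 0.00341) that was 0.13 after upper-quartile scaling (adjusted p = 0.0605) and 0.025 after GC correction (adjusted p = 0.590). Elk4 and Mrtfa rose by 0.34 and 0.31 (log2), and by 0.22 and 0.17 after upper-quartile scaling.

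Among the genes for the MAP kinases, 9 of 21 tested were higher and 4 were lower, beside 48.5% higher and 24.7% lower for all genes. Their median, 0.075, lay below that of all genes. Mapk7, which encodes ERK5, rose by 0.68 ± 0.0489 and Rps6ka3, which encodes the ERK-activated kinase RSK2, by 0.64 ± 0.121, while Map2k1 rose by 0.39 and Araf had a log2 fold change of -0.44. After GC correction Rps6ka3 was 0.33 higher. Mapk3, which encodes ERK1, fell from 195 to 206 FPKM in Control to 158 to 169 FPKM with MMK-1, a log2 fold change of -0.31 ± 0.0423 (SE, limma, adjusted p = 0.000168). After upper-quartile scaling 3 of these kinase genes were higher and 10 lower. Phosphorylation of the kinases was not measured in these libraries.

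Genes that feed back on ERK, with the ETV factors that ERK induces, had a median of 0.76, with 7 of 10 tested higher and 1 lower in FPKM as deposited and after upper-quartile scaling. In FPKM as deposited 48.5% of all genes tested were called higher and 24.7% lower. Etv4 and Etv5 entered the test only through the MMK-1 group, and among the other 8 genes 5 were higher and 1 lower on both scales, with a median of 0.71 in FPKM as deposited. Dusp4, a nuclear phosphatase of ERK, had 5.96, 6.20 and 5.92 FPKM in Control and 23.7, 24.5 and 25.4 FPKM with MMK-1. Its rise of 1.86 ± 0.0455 (log2, SE, limma, adjusted p = 7.84e-09) was close in size to that of Fos. Etv4, an ETS factor, was 1.23 ± 0.0606 higher, with a mean of 0.751 FPKM in Control and 3.10 FPKM with MMK-1. Spred1, an inhibitor of RAS signalling, rose by 1.03 ± 0.0814, and Phlda1 by 0.85 ± 0.0640 (log2, SE). The member of the list that fell was Dusp5, another nuclear ERK phosphatase, with a log2 fold change of -0.65. Dusp6 and Spry2 were not called, with log2 fold changes of -0.065 (limma, adjusted p = 0.465) and 0.13 (limma, adjusted p = 0.178). Dusp5, Dusp6 and Spry2 were named after their values were seen.

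Known AP-1 target genes, from a list of 24 symbols of which 21 were in the deposited table and 14 were tested, were higher in 10 and lower in 2, with a median of 0.59. Among all genes tested, 48.5% were called higher and 24.7% lower. After upper-quartile scaling 9 of the 14 were higher and 3 lower. In FPKM as deposited, 1 was lower when any library other than MMK-1 replicate 3 was left out. Mmp7, a matrix protease that is also a Paneth cell gene, had 1.25, 1.15 and 1.61 FPKM in Control and 7.32, 6.66 and 6.95 FPKM with MMK-1, and rose by 1.78 ± 0.0785 (log2, SE, limma, adjusted p = 1.97e-07). Ccnd1, the gene of cyclin D1, rose by 1.51 ± 0.0526, Cd44 by 0.93 ± 0.0768 and Sprr2a3, a cornified envelope gene with near-identical copies among which reads can be split, by 1.28 ± 0.0840 (log2, SE). The genes called lower were Ezr, with a log2 fold change of -0.47 (limma, adjusted p = 1.02e-05), and Vim, with -0.25 (limma, adjusted p = 0.0491). Ezr and Vim were named after their values were seen. Many genes of this list are also Wnt targets or cell type markers, and AP-1 binding was not measured.

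**Figure D5:**
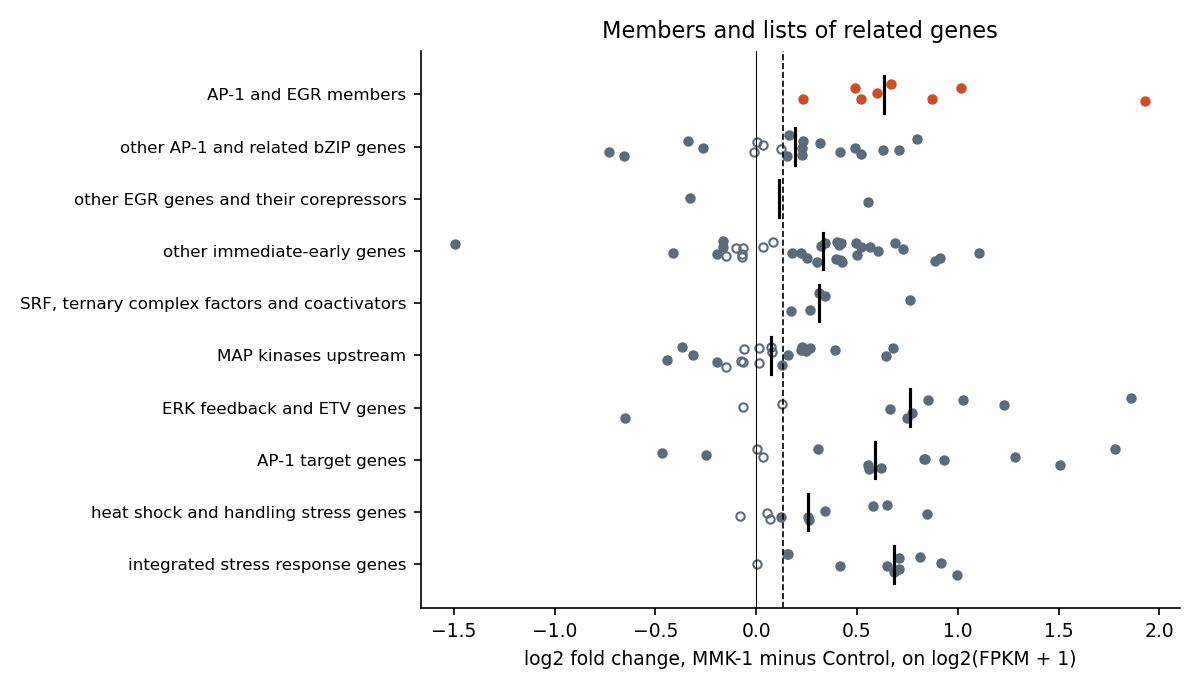
Log2 fold change of every tested gene of the 10 members and of 9 lists of related genes, from FPKM as deposited. Filled points passed an adjusted p of at most 0.05, open points did not, short black bars are list medians and the dashed line is the median of all genes tested, 0.13. The medians of the members (0.63), the ERK feedback and ETV genes (0.76), the integrated stress response genes (0.68) and the AP-1 targets (0.59) lie to the right of the line, and that of the MAP kinases (0.075) lies to its left.

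Stress genes are given beside the members, with 48.5% of all genes called higher as the background. Of 10 heat shock and chaperone genes tested, 7 were higher and 0 were lower at the adjusted threshold (limma), also 0 at an unadjusted p under 0.05, with a median of 0.26, while 5 were higher and 2 lower after upper-quartile scaling and 1 was lower without MMK-1 replicate 3. Hspa1b entered the test only through the MMK-1 group, and without it 6 of 9 were higher and 0 lower. Hsph1 rose by 0.85 ± 0.0473 and Hsp90aa1 by 0.65 (log2). Genes of the integrated stress response, of which 11 were tested, were higher in 10, with a median of 0.68, and after upper-quartile scaling 8 were higher and 1 was lower, with a median of 0.53. Slc7a11, the cystine transporter gene, rose by 0.99 ± 0.0723, Phgdh, of serine synthesis, by 0.92 ± 0.0511 and Ppp1r15a by 0.81 ± 0.0852 (log2, SE), whereas Atf4, the factor at the centre of this response, was 0.0053 higher (limma, adjusted p = 0.914) in FPKM as deposited and had a log2 fold change of -0.15 after upper-quartile scaling (limma, adjusted p = 0.00388). This list shares Atf4, Ddit3 and Cebpb with the list of bZIP genes. The part of stress or handling in the members' differences was not tested.

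Marker genes of cell types also differed between the groups. The counts below stand beside 48.5% of all genes tested called higher and 24.7% called lower. All 11 epithelium markers were present and tested, with 4 higher and 5 lower, and their summed FPKM was 4451 to 4489 in Control and 3201 to 3440 with MMK-1. Among them Epcam had a mean of 392 FPKM in Control and 391 FPKM with MMK-1, and Krt20 and Vil1, which rise as enterocytes mature, had log2 fold changes of -1.52 and -1.21. All 6 stem cell markers and all 6 proliferation markers were higher, and the summed FPKM of the stem cell markers was 66.0 to 67.7 in Control and 381 to 409 with MMK-1, against 179 to 181 and 285 to 305 for the proliferation markers. Of 10 enterocyte markers 9 were lower and 1 was higher, and their summed FPKM was 9435 to 9543 in Control and 5248 to 5658 with MMK-1. Of 6 secretory markers tested 4 were higher and 1 was lower, with sums of 1098 to 1190 and 1915 to 2094 FPKM. These markers differed by cell type. The Paneth cell genes Lyz1 and Defa24 had log2 fold changes of 1.87 and 1.41, and the goblet cell genes Tff3 and Muc2 of 0.38 and -0.35. The enteroendocrine genes Chgb and Chga had 0.28 and 0.050, and Chga was not called (limma, adjusted p = 0.384). The summed markers of immune cells were at 6.27 to 6.74 FPKM in Control and 2.49 to 3.32 FPKM with MMK-1, with Cd68 as the highest gene, those of fibroblasts and muscle at 1.21 to 1.23 and 0.360 to 0.474 FPKM, with Pdgfrb as the highest, and those of endothelium at 0.100 to 0.205 and 0.127 to 0.301 FPKM, with Pecam1 as the highest and Kdr at 0 fragments in every library. These sums were small beside that of the epithelium, but single markers were not all below the members. Cd68 had a mean of 3.17 FPKM in Control, where Fos had 3.18 FPKM. Cd68 and Itgam, the 2 immune markers tested, were called lower, with log2 fold changes of -0.96 and -0.79, and Itgam entered the test only through the Control group. Pdgfrb, which was not tested, had means of 1.10 FPKM in Control and 0.265 FPKM with MMK-1. In bulk RNA, more cells of a type that expresses a gene and more RNA of that gene per cell cannot be told apart, and the part of these markers' cell types in the members' differences was not tested.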

How the data were processed

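Total RNA of 6 organoid samples was sequenced as 150-bp paired-end reads. The authors deposited FPKM values (fragments divided by the length of each gene and the total of each library), and their notes name HISAT2, HTSeq, R 3.2.0, DESeq2 and the build mm10, with no role or strand setting given. Whole fragments per gene and library totals (35512739 to 37537463) were computed from the FPKM steps for 99.96% of genes above 0, with implied lengths within 0.1 of a whole number. These counts cover counting error only.

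Groups were compared with limma 3.58.1 in R 4.3.3 (limma-trend) on log2(FPKM + 1), where 1 is the pseudocount. Genes needed a mean of at least 1 FPKM over the libraries, and replicate numbers were not used as a block. Fold changes on this scale understate those of low genes. Single ratios used exact two-sided permutation tests. Scripts were tested on simulated data. Members, gene lists and tests were chosen with earlier results of these data known. All 10 members were named, with the genes of each list past an adjusted p of 0.05 with the 4 largest changes, and Elk1, Srf, Mapk3, Egr2, Egr3 and Dusp1. Some genes that this rule names are not reported here. Of the 42 immediate-early symbols, Cyr61 is an older symbol of Ccn1.

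Coordinates are from GENCODE M21 (GRCm38, the build that mm10 names). GC content of GENCODE transcripts was matched for 98.7% of genes tested, and a trend fitted by loess (span 0.3) was subtracted from each library. Python 3.11.15, numpy 2.4.6, pandas 2.3.3 and matplotlib 3.10.9 were used. Genes for formyl peptide receptors were not analysed here.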

Additional observations from a re-analysis of the deposited data

How the results depend on the processing

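Each of the 8 members tested was recomputed under 14 alternatives, and 110 of 112 results kept their direction and their side of the threshold; the exceptions were Fosl2 after upper-quartile scaling (0.081, adjusted p = 0.0985) and after median-of-ratios scaling (0.081, adjusted p = 0.0929). The median log2 fold change of the members was 0.48 under both scalings and 0.46 after GC correction, with or without a replicate block, where the medians of all genes were between -0.0048 and -0.0043. The number of members changed at least 2-fold was 1 under both scalings and after GC correction, with or without the replicate block, and between 1 and 2 when each library was left out (1 without MMK-1 replicate 3). In FPKM as deposited, 3.39% of all genes were called higher at 2-fold. At a fold change of at least 1.5 the number of members was 5, and the share of all genes at that threshold was not computed. Genes lower at the adjusted threshold numbered 3916 after median-of-ratios scaling and 3932 after GC correction, in place of 2606. Members with a CArG box in the window were 0, or 2 with 1 mismatch.

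Replicate numbers showed no clear pairing of the libraries. Correlations of same-numbered libraries were 0.025, -0.040 and 0.028, and not every library was closest to its own number. With 3 libraries per group, these values cannot exclude shared mice or batches. With the replicate block all 8 members stayed higher, with 5024 genes higher and 2543 lower. Of 489 results for 35 of the named genes of the lists, 485 kept direction and side, 4 lost the call, all of Srf, and 0 reversed. For these changes the cause was not tested.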

Other observations

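The deposited table annotates 42 genes besides the members to the bZIP family. Of the 32 tested, MMK-1 libraries had 16 higher and 10 lower (limma, adjusted p of at most 0.05), beside 48.5% and 24.7% of all genes tested. The median log2 fold change of the 32 was 0.14 against 0.13 for all genes tested. After upper-quartile scaling 9 of them were higher and 12 lower, with a median of -0.0086. Of the 30 genes with a mean of at least 1 FPKM in both groups, 16 were higher and 8 lower, or 9 and 10 after upper-quartile scaling. Their summed FPKM over the 42 was 950 to 952 in Control and 940 to 970 with MMK-1. The genes described next were chosen after their values were seen. Crebzf, which encodes an atypical bZIP protein, rose by 1.16 ± 0.122 on the log2 scale (SE, limma, adjusted p = 3.71e-05), from a mean of 6.88 to 16.8 FPKM. Dbp, Hlf and Tef, the PAR bZIP genes of circadian output, had log2 fold changes of -0.67 ± 0.0583, -0.57 ± 0.0609 and -0.13 ± 0.0440 (SE), and Hlf, whose mean with MMK-1 was 0.689 FPKM, entered the test only through the Control group. Nfil3, whose protein competes for the same DNA element, rose by 0.87 ± 0.0680 (limma, adjusted p = 5.65e-06). These 4 genes kept their directions after upper-quartile scaling, at -0.81, -0.65, -0.28 and 0.77.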
